A study of Mus musculus with 13 samples.

Results

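The livers of 5 SIRT1 alanine knock-in mice (TAKI) were compared with those of 5 wild-type mice (WT), gene by gene, over the genes that the array measured with more than 1 probe. A gene was kept when at least 2 of its probes stood well above background on all 10 arrays, and the log2 values of those probes were averaged. This left 5261 of the 8845 gene names with 2 or more probes, out of 27962 gene names on the array. They rest on 12385 probes: 3808 genes had 2 probes above background, 1111 had 3 and 342 had 4 or more. A relative level is the log2 intensity minus the 75th percentile of the array, and a difference is the TAKI mean minus the WT mean of relative levels.

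Liver RNA of 13 mice was hybridised in the series, 1 mouse per array, on Agilent whole-genome arrays of 1 colour. The mice compared here were the 5 TAKI and 5 WT males; 3 mice with another substitution at the same residue were not used in the comparison. Both groups were of the C57BL/6 background and had eaten a western-style diet rich in fat for 5 months, so no value comes from lean liver. TAKI mice carry a SIRT1 allele in which threonine 522 is replaced by alanine, which cannot be phosphorylated. WT mice carry the unchanged gene. Whether the allele was carried on both chromosomes, how many founder lines were used and how old the mice were are not given in the sources used here.

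SIRT1 is a protein deacetylase that uses NAD as a cosubstrate and acts on histones and on regulators such as PGC-1alpha, FOXO1, p53 and the NF-kappaB subunit RelA. In hepatocytes it is known for favouring fatty acid oxidation and gluconeogenesis during fasting and for restraining inflammatory gene expression. Its activity is held back by the binding protein DBC1, encoded by Ccar2, and is changed by phosphorylation at several residues. The knock-in changes a residue of the protein, and the array measured RNA only.

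The labelled tissue was checked against defining genes. All 24 hepatocyte markers on the array were above background on all 10 arrays, at a median percentile of 99.8 among probes, and albumin (Alb) stood at percentile 99.99. Markers of other cells that bulk liver holds were also detected: 59 of 61 macrophage, 48 of 62 lymphocyte and 56 of 56 endothelial markers were above background on all 10 arrays. In whole tissue, fewer cells of a type and less RNA per cell cannot be told apart. Between 60.5% and 73.1% of the spots of an array were well above background, and the correlation of relative levels between arrays was 0.981 to 0.995 within WT, 0.978 to 0.995 within TAKI and 0.974 to 0.992 between WT and TAKI. The TAKI arrays lay on 2 slides, TAKI 1 and 2 on slide 4 and TAKI 3 to 5 on slide 5, and no slide held TAKI with another genotype. WT 1, 2 and 4 lay on slide 1, WT 3 on slide 2 and WT 5 on slide 3. Slide and genotype cannot be told apart here.

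Since a gene's value is the mean of separate probes, the probes behind the results are shown first. They are given by their first 30 bases of 60, as the deposited scanner files list them, with the position in the mouse build those files use (mm7). Exon and untranslated region were not annotated here for that build. Sirt1 is the gene that carries the substitution, Il17rd and Ppp1r13l are genes whose probes changed together, and Ccdc189 and Ccar2 are genes whose probes did not.
Sirt1 probe 1, chr10:62855795-62855854, minus strand: actaatggctttcattcctgtgaaagtgat
Sirt1 probe 2, chr10:62838289-62838348, minus strand: aaactagggatcaattttctcaactgcaga
Il17rd probe 1, chr14:24532761-24532820, plus strand: agaagcagtttatacccttccaacatcccc
Il17rd probe 2, chr14:24521669-24521728, plus strand: gaagttatataggttaaggctggcaaacct
Ppp1r13l probe 1, chr7:17053582-17053641, plus strand: cacctcaccagcgccactctgccacgcaat
Ppp1r13l probe 2, chr7:17060036-17060374, plus strand: gctatgtgccgcgcaactacttcgggctct
Ccdc189 probe 1, chr7:123681819-123682070, minus strand: gcaacgtggaggaatgctaccgctacttta
Ccdc189 probe 2, chr7:123684028-123684087, minus strand: tctcatttgtattactcctgtaaggtgtcc
Ccar2 probe 1, chr14:64790328-64790387, minus strand: agaaacctaggcatgacctgtctccttacc
Ccar2 probe 2, chr14:64782708-64782767, minus strand: cttgcctctttccataattcatggtttcag

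Sirt1 RNA did not differ between the genotypes beyond the spread of the mice. The mean of both probes was -0.51, -0.26, -0.41, -0.32 and -0.24 in WT 1 to 5. In TAKI 1 to 5 it was 0.05, -0.53, -0.14, -0.35 and -0.17, so the lowest and the highest mouse were both TAKI and the groups overlapped. The difference was 0.12 ± 0.11 (SE, n = 5 mice per group), (-0.04 with median scaling), with a 95% confidence interval of -0.12 to 0.36 and an adjusted p of 0.777 (limma, Benjamini-Hochberg over 5261 genes). A two-sided exact permutation test over the 252 ways to regroup the 10 mice gave p = 0.325, where the smallest possible p is 0.00794. Probe 1 differed by -0.01 (exact permutation p = 0.929) and probe 2 by 0.25 (exact permutation p = 0.0714). An RNA level does not check a single substitution, so these values say nothing of whether the allele was present.

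Few genes of the 5261 separated TAKI from WT, and most of those were higher in TAKI. With limma and Benjamini-Hochberg adjustment, 64 genes passed an adjusted p of 0.05, which is 1.22% of those tested: 52 were higher in TAKI (0.988%) and 12 lower (0.228%). Without adjustment, 498 genes had p below 0.05 (9.47%). In 144 genes (2.74%) the 5 TAKI and 5 WT values did not overlap, and 63 of the 64 genes past the threshold were among them. The changes were small: the genes that rose did so by 1.31 to 2.39 fold, and 8 genes of the 5261 differed by more than 1 on the log2 scale. The middle 95% of all differences lay between -0.28 and 0.45, the median SE was 0.11 and the median 95% confidence interval reached 0.24 to either side. The genes past the threshold were dim ones, with a median relative level of -2.11 against -0.39 for all genes tested. The split into higher and lower moved with the scaling: median scaling, which moves the median of all genes from -0.01 to -0.17, gave 21 higher and 32 lower, quantile normalization 36 and 25, and normexp background correction 12 and 11. The number also depended on single mice. It was 33 without WT 2, 41 without WT 4, 36 without TAKI 3 and 31 without TAKI 5. With slide as a random block it was 40.

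Genes past the threshold are named first if their probes all went the same way and their groups did not overlap. The largest rises among them were in a receptor, a kinase, an inhibitor of cell death, a membrane protein and an interferon. Il17rd encodes a receptor of the interleukin-17 receptor family that restrains FGF and MAP kinase signalling. Its relative level was -2.22, -2.69, -2.28, -2.35 and -2.44 in WT 1 to 5 and -1.08, -1.36, -0.83, -1.51 and -1.18 in TAKI 1 to 5. Every TAKI mouse was above every WT mouse, and the difference was 1.20 ± 0.13 (SE), a 2.31-fold rise with an adjusted p of 0.00277 (limma). Both Il17rd sequences printed above gave the rise, by 1.34 with probe 1 and 1.07 with probe 2. Over 31 alternative fits, including other probe filters and probe groupings, the difference of Il17rd ranged from 0.20 to 1.28. The call was lost in 4 of them, with a highest adjusted p of 0.884 (limma).

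Faim2 encodes a membrane protein that inhibits Fas-driven cell death, known mainly from neurons. It stood at -2.12, -2.60, -2.41, -2.63 and -2.02 in WT and at -1.05, -1.27, -0.81, -1.45 and -0.94 in TAKI. The groups did not overlap, and the rise of 1.25 ± 0.15, or 2.39 fold, was the largest among the 5261 genes (adjusted p = 0.00277). Its probes rose by 1.76 and 0.75. Mapk15, an atypical MAP kinase, went from -3.93 ± 0.23 (SD) in WT to -2.79 ± 0.22 in TAKI, a 2.21-fold rise with an adjusted p of 0.00277 and probes at 1.49 and 0.79. Tmem210, a transmembrane protein gene, rose by 1.20 ± 0.15 (adjusted p = 0.00308), but its probes share 44 of their 60 bases and are close to the same measurement. Ifnab, an interferon-alpha gene, rose by 1.10 ± 0.14 (adjusted p = 0.00308), with both probes higher, at 1.03 and 1.18. The interferon-alpha genes are near-identical copies, so which of them gave this signal is uncertain.

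The other 7 genes named among the largest rises had 1 probe that carried most of the difference. Cadm3, a neural cell adhesion molecule, rose by 0.85 ± 0.10 (adjusted p = 0.00277), yet its probes differed by 1.65 and 0.06. Fam189b rose by 0.85 (probes 1.54 and 0.16) and Ppil4, a prolyl isomerase of the spliceosome, by 0.83 (probes 1.59 and 0.07). The same held for Aurkc, the Aurora kinase of meiosis, which rose by 0.89 with probes at 1.4 and 0.39. Among the dimmer ones, 2900052N01Rik rose by 1.05 (probes 1.73 and 0.36), the Wnt inhibitor gene Apcdd1 by 0.91 (probes 1.59 and 0.23) and the zinc finger gene Zfp788 by 0.81 (probes 1.42 and 0.21). Their adjusted p-values (limma) were 0.00402 for Fam189b, 0.00673 for Ppil4, 0.0192 for Aurkc, 0.0229 for 2900052N01Rik, 0.0283 for Apcdd1 and 0.0339 for Zfp788. All 7 were higher in 5 of 5 TAKI mice than in any WT mouse, which was a condition for naming them. Over all genes tested, 2.74% had groups that did not overlap. Leaving out single mice kept the calls of Cadm3, Fam189b and Ppil4 in all 10 fits, while Aurkc lost its call without WT 2 (adjusted p = 0.060) or TAKI 5, 2900052N01Rik in 6 fits, Apcdd1 in 7 and Zfp788 in 8.

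**Figure D1:**
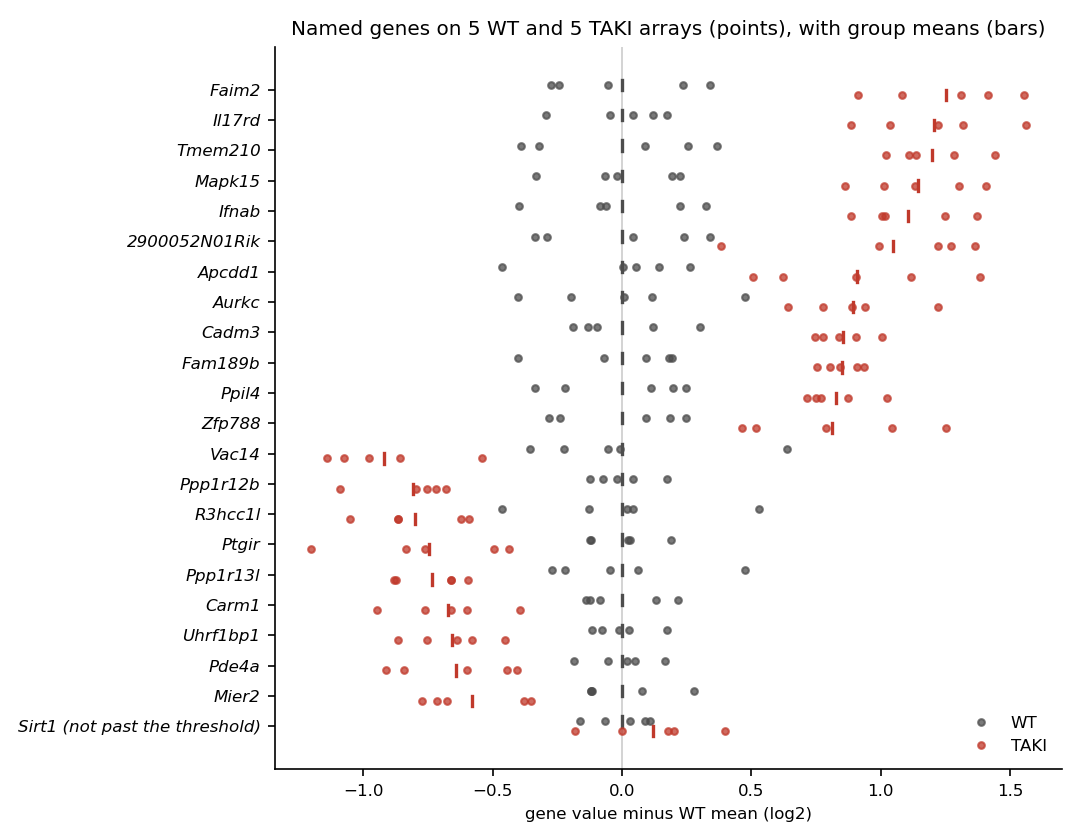
Relative log2 level of each named gene in the 5 WT and 5 TAKI mice, minus the WT mean of that gene, with 1 point per mouse and a bar at each group mean; the genes that rose are listed first, then those that fell, then Sirt1. The genes that rose or fell were chosen so that every TAKI point lies beyond every WT point, as in 2.74% of all genes tested. Sirt1 was added without that condition, and its groups overlap.

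With the scaling used for relative levels, fewer genes fell (12) than rose (52), and the largest fall was smaller than the largest rise. Both depended on the scaling. Median scaling gave 32 lower and 21 higher genes, quantile normalization 25 and 36, and normexp 11 and 12. With median scaling the fall of Vac14 (-1.08) was about as large as the rise of Faim2 (1.10). Ppp1r13l encodes iASPP, an inhibitor of p53. Its relative level was -1.54, -1.76, -1.71, -1.43 and -1.01 in WT 1 to 5 and -2.15, -2.09, -2.15, -2.37 and -2.36 in TAKI 1 to 5. No TAKI mouse reached the lowest WT mouse, and the fall was -0.73 ± 0.13 (SE), a level 1.66 fold lower, with an adjusted p of 0.0218 (limma). Both sequences printed above fell, by 0.61 for probe 1 and 0.86 for probe 2. Pde4a, a phosphodiesterase that breaks down cyclic AMP, went from -2.15 ± 0.13 (SD) to -2.79 ± 0.23, with probes at -0.33 and -0.95 (adjusted p = 0.020). Ppp1r13l lost its call in 5 of the 10 fits that leave out a mouse (highest adjusted p 0.0726, without TAKI 5), and Pde4a without WT 2 (0.060) or WT 4.

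Vac14, the scaffold of the complex that makes the lipid PI(3,5)P2 on endosomes, had the largest fall, -0.92 ± 0.18. Its relative level was -0.88, -1.18, -1.05, -0.83 and -0.19 in WT and -1.36, -1.80, -1.90, -1.68 and -1.96 in TAKI. The groups did not overlap, but WT 5 stood above the other WT mice, and the call (adjusted p = 0.0274) was lost in 6 of the 10 fits without a mouse. R3hcc1l fell by 0.80 (probes -0.21 and -1.39, adjusted p = 0.0335) and lost its call in 8 of them. Ppp1r12b, a subunit of myosin phosphatase, fell from -2.24 ± 0.12 (SD) to -3.04 ± 0.16 (adjusted p = 0.00277) and kept its call in all 10 fits, with probes at -0.27 and -1.35.

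Among the remaining genes that fell were regulators of transcription and signalling. Carm1, an arginine methyltransferase and transcriptional coactivator, stood at -1.06, -1.04, -1.0, -0.79 and -0.71 in WT and at -1.31, -1.68, -1.58, -1.87 and -1.52 in TAKI. All TAKI mice were lower, and the fall of 0.67 ± 0.11 had an adjusted p of 0.0143 and held in all 10 fits without a mouse. It came from probe 2, at -1.25, while probe 1 was at -0.10. Uhrf1bp1 fell by 0.66 (adjusted p = 0.00605, probes -0.24 and -1.08). Ptgir, the prostacyclin receptor, fell by 0.75 (adjusted p = 0.0218, probes -0.09 and -1.4), and Mier2, part of a histone deacetylase complex, by 0.58 (adjusted p = 0.0302, probes -0.24 and -0.92). Ptgir lost its call in 5 fits without a mouse and Mier2 in 8. Further genes with all probes lower did not pass: the Golgi mannosidase gene Man2a2 was at -0.39 (adjusted p = 0.0588) and AU040320 at -0.29 (0.0810).

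Of the 39 genes past the threshold that are named, 22 kept their call with slide as a random block, 31 with quantile normalization, 26 with median scaling, 17 with normexp and 14 with the brightest probe of the gene alone. Il17rd, Ppp1r13l, Tmem210, Ifnab, Uhrf1bp1 and Ccdc189 kept it in all 5 of these fits, although the probes of Ccdc189 disagree, since its brightest probe is the one that differed. Faim2 lost its call with the brightest probe (adjusted p = 0.104, limma), Mapk15 with normexp, Ppp1r12b and Carm1 with the brightest probe, and Vac14 with the brightest probe or the slide block. Pde4a lost it with the brightest probe (0.427), R3hcc1l with the brightest probe, normexp or the slide block, Mier2 with the brightest probe or the slide block, and Ptgir with the slide block. Among the genes that rose mainly with 1 probe, Cadm3 and Fam189b lost it with the brightest probe, Ppil4 and Aurkc with the brightest probe or normexp, 2900052N01Rik with normexp or the slide block, and Apcdd1 and Zfp788 with all but the brightest probe.

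For most genes past the threshold, the probes of the gene disagreed about the size of the change. In 52 of the 64 all probes had the sign of the mean, and in 12 a probe had the opposite sign. In 44 genes only 1 probe had an unadjusted p below 0.05 in the direction of the mean, and in 30 the smallest probe difference was under 0.1. Over the 64 genes the larger probe difference had a median of 1.24 and the smaller a median of 0.16. Of the 64 genes, 59 had 2 probes, so no further probe sided with either. Only 18 genes, 0.342% of those tested, had every probe at an unadjusted p below 0.05 in the direction of the mean, 14 of them higher and 4 lower. The 4 lower ones were Vac14, R3hcc1l, Ppp1r13l and Pde4a.

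Ccdc189, a gene of motile cilia, shows how far probes of a gene can part. Its probe 1 stood at -2.78 ± 0.34 (SD) in WT and at -2.90 ± 0.25 in TAKI, a difference of -0.11. Its probe 2 stood at -2.38, -2.28, -1.06, -2.07 and -1.84 in WT and at 0.52, 0.54, 0.94, 0.56 and 0.60 in TAKI. So the gene mean of Ccdc189 rose by 1.22 (adjusted p = 0.00308) although the difference was seen with 1 of its printed sequences and not with the other. The other genes past the threshold of this kind, each with a probe of opposite sign, included Nacc2, a transcriptional repressor (probes 1.67 and -0.09), Itpripl1 (1.4 and -0.09), Ccdc180 (1.62 and -0.12), Exoc6b of the exocyst (1.42 and -0.11) and Rrp7a, a ribosomal RNA processing factor (0.87 and -0.10). The deubiquitinase gene Usp33 had 4 probes between -0.05 and 1.39, and Dync2h1, the motor of ciliary transport, 4 between -0.06 and 1.51. Among lower genes, Cd300a, an inhibitory receptor of leukocytes, had probes at 0.30 and -1.65, and Zdhhc8, a palmitoyltransferase, probes from 0.05 to -1.47. B230354K17Rik passed the threshold at -0.59 (adjusted p = 0.0497) and was the gene whose groups overlapped.

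**Figure D2:**
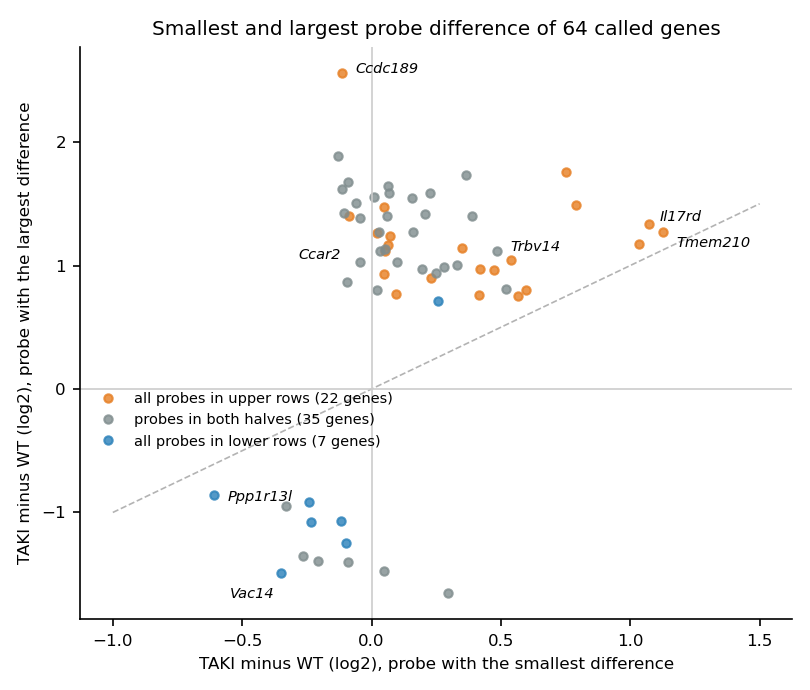
Largest against smallest difference among the probes of each of the 64 genes past the threshold (log2, TAKI minus WT, 1 point per gene), coloured by whether the gene's probes lie in the upper rows of the array, the lower rows or both. Points near the line of equal differences have probes that changed alike; most points lie near 0 for the smaller difference, whose median is 0.16.

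Genes past the threshold also followed where their probes sit on the array. Of 1082 genes with all probes in the upper rows (1 to 266 of 532), 22 were higher (2.03%) and 0 lower (limma; 54 were lower at an unadjusted p below 0.05). Of 1126 genes with all probes in the lower rows (267 to 532), 1 was higher (0.0888%) and 6 were lower (0.533%). The calls were thus all higher in the upper rows and mostly lower in the lower rows, though the lower rows held only 7 calls. Among the 3053 genes with probes in both, 29 were higher and 6 lower. At an unadjusted p below 0.05 (limma), the upper rows had 84 higher and 54 lower genes. The lower rows were balanced at that level, with 45 higher and 46 lower. Among single probes, 186 of 12385 passed the threshold over all probes (1.5%), 160 higher (1.29%) and 26 lower (0.21%). In rows 1 to 212, 2.59% to 3.67% of the probes were higher, and in rows 213 to 532 at most 0.238% were; lower probes made up 0.975% of rows 479 to 532. Il17rd, Faim2, Mapk15, Tmem210, Ifnab and Ccdc189 have all their probes in the upper rows, and Vac14, Ppp1r13l, Carm1, Uhrf1bp1 and Mier2 in the lower rows. The part of array position in these differences was not tested.

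**Figure D3:**
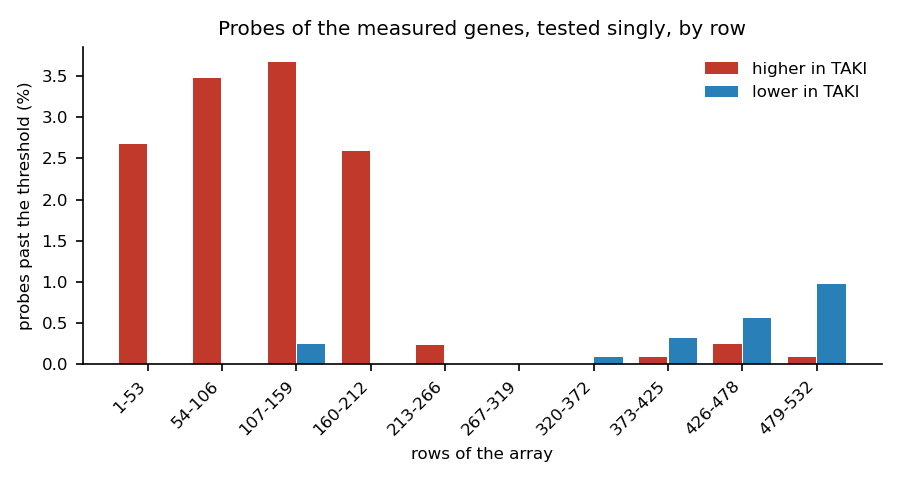
Percent of single probes past the threshold that were higher or lower in TAKI, by the row of the probe on the array in 10 bins. Higher probes are most frequent in the upper 4 bins (2.59% to 3.67%), and lower probes reach 0.975% in the last bin.

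The genes called by every probe with probes in both the upper and lower rows were Pde4a, R3hcc1l, Inpp4a and Trbv14. Inpp4a and Trbv14 were chosen after their values were seen. Inpp4a, a phosphatase of PI(3,4)P2, was higher with probes at 0.52 and 0.81; it rose by 0.67 ± 0.12 (adjusted p = 0.0242, limma) and lost that call in 5 of 10 fits without a mouse. The call of Inpp4a was also lost with median scaling (adjusted p = 0.0539), the slide block (0.0609), normexp (0.321, difference 0.30) and the brightest probe (0.40). Trbv14 is a variable segment of the T cell receptor beta chain, and 4 probes carry its name, from chr6:41072640-41072699 to chr6:41479327-41479386. It stood at -2.26, -2.14, -2.01, -2.30 and -2.25 in WT and at -1.30, -1.16, -1.46, -1.77 and -1.80 in TAKI. No TAKI mouse overlapped with WT, and all 4 probes were higher, by 0.49 to 1.11. The gene mean rose by 0.69 ± 0.13 (adjusted p = 0.0229), 0.96 above WT in the TAKI mice of slide 4 and 0.52 in those of slide 5. The call of Trbv14 was lost without WT 1, WT 2, WT 4 or TAKI 3 (highest adjusted p 0.0678), and with quantile normalization (0.0570), median scaling (0.11), normexp (0.166) or the brightest probe (0.342). The 4 probes lie far apart along the receptor locus, so which segments the name covers is uncertain. Vpreb3, a gene of B cell precursors, rose by 0.69 (probes 0.42 and 0.97, adjusted p = 0.00963) and Mag, a glycoprotein of myelin, by 0.79 (probes 0.54 and 1.04, adjusted p = 0.00670). Vpreb3 lost its call with normexp (adjusted p = 0.139) and the brightest probe (0.362), and Mag with median scaling (0.0539). Both were also chosen after their values were seen and have their probes in the upper rows.

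The genes that sense or use the same cofactor as SIRT1, and its known partners, held 1 gene past the threshold, Ccar2, and had medians near that of all genes. Of the 13 measured genes of NAD synthesis and use and of the sirtuin family, 0 passed the threshold (limma; 1 had an unadjusted p below 0.05), 9 were above WT and 4 below, and their median difference of 0.03 lay next to the -0.01 of all genes. The highest was Cd38, the main enzyme that consumes NAD, at -2.61, -2.68, -2.73, -2.57 and -2.74 in WT and -2.78, -2.14, -2.12, -1.93 and -2.20 in TAKI. TAKI 1 was the lowest of all 10 mice while the other TAKI mice were the highest 4, and the difference of 0.43 ± 0.14 did not pass (adjusted p = 0.248). The lowest was Sirt7, a nuclear sirtuin, at -0.13 ± 0.09 (adjusted p = 0.666).

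Among 20 measured substrates and partners of SIRT1, 1 passed. Ccar2, which encodes the SIRT1 inhibitor DBC1, was at -2.28, -2.28, -2.58, -2.21 and -2.42 in WT and at -1.78, -1.88, -1.95, -1.95 and -1.77 in TAKI. Every TAKI mean was above every WT mean, with a rise of 0.49 ± 0.09 and an adjusted p of 0.020 (0.0706 without TAKI 5, 0.104 with median scaling and 0.831 with normexp). The probes printed above did not bear this out alike. Probe 1, in row 119 and dim, rose by 1.03 from -4.72 ± 0.23 (SD) to -3.70 ± 0.14. Probe 2, in row 481 and far brighter, was at 0.01 ± 0.13 in WT and -0.03 ± 0.08 in TAKI, a difference of -0.04. With the brightest probe alone the difference of Ccar2 was therefore -0.04.

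None of the other 19 partners passed the threshold. With Ccar2, 4 of the 20 (Rela, Wrn and Per2 besides) had an unadjusted p below 0.05, where 9.47% of all genes did. Wrn, a DNA helicase chosen after its values were seen, was at 0.39 ± 0.14 (adjusted p = 0.373). Per2, a repressor of the circadian clock, had the highest difference, 0.53 ± 0.23 (adjusted p = 0.517), with probes at -0.15 and 1.21. Rela, the NF-kappaB subunit that SIRT1 deacetylates, had the lowest, at 1.29, 1.26, 1.41, 1.33 and 1.03 in WT and 1.17, 1.09, 0.75, 0.73 and 0.82 in TAKI. TAKI 1 and 2, of slide 4, lay within the WT range and TAKI 3 to 5, of slide 5, below it. The difference was -0.35 ± 0.11 (adjusted p = 0.249), with both probes lower, at -0.42 and -0.28. Ppargc1a, which encodes PGC-1alpha, differed by -0.09 with a 95% confidence interval of -0.35 to 0.17. Hnf4a, the hepatocyte transcription factor, differed by -0.04 (-0.34 to 0.26). Ppargc1a and Hnf4a were chosen after their values were seen.

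Genes of fat metabolism, the processes for which hepatic SIRT1 is best known, held no gene past the threshold in limma, and 2 of fatty acid oxidation, 0 of lipogenesis, 2 of triglyceride and 1 of cholesterol metabolism had an unadjusted p below 0.05. Over all genes 1.22% passed and 9.47% had an unadjusted p below 0.05, so lists of 14 to 24 genes would hold few or none at those shares. Of 17 measured genes of fatty acid oxidation and ketogenesis, 10 were above WT and 7 below, with a median of 0.12. That median fell to -0.04 with median scaling, which moves all genes alike. Measured from the median of all genes, the list stood at 0.13, against 0.14 with quantile normalization and 0.11 with normexp. Cpt1a, the rate-limiting transferase of mitochondrial fatty acid entry, was at 4.06, 3.77, 4.16, 4.08 and 3.91 in WT and at 4.14, 3.75, 4.41, 4.08 and 4.19 in TAKI. The mice of both genotypes covered the same range, and the 95% confidence interval of the difference, -0.15 to 0.38, leaves out a rise of 2 fold or more. The fatty acid transporter gene Slc27a4 was lowest of that list at -0.29 ± 0.12 (adjusted p = 0.436). Cpt1a was chosen after its values were seen.

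Lipogenesis genes varied more between mice than between genotypes. Of 14 measured, 8 were above and 6 below WT, with a median of 0.01. Fasn, the fatty acid synthase, was at 1.64, 2.67, 2.79, 2.56 and 1.38 in WT and at 1.74, 2.73, 1.13, 2.42 and 2.02 in TAKI. Both genotypes spanned more than a doubling, and the difference of -0.20 ± 0.34 had a 95% confidence interval of -0.93 to 0.53, too wide to tell a moderate change from none. Fasn was chosen after its values were seen. Mlxipl, which encodes the carbohydrate sensor ChREBP, was the lowest of the list at -0.29 ± 0.16 (adjusted p = 0.608). In triglyceride synthesis, lipolysis and lipid droplets, 17 of 24 genes were below WT (median -0.04), from hormone-sensitive lipase, Lipe, at -0.26 to lipoprotein lipase, Lpl, at 0.23.

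Of 21 genes of cholesterol synthesis, 16 were below WT with a median of -0.06, and the highest, the sterol dehydrogenase gene Nsdhl, was at 0.25 ± 0.14 (adjusted p = 0.599). Bile acid and sterol transport genes had 6 of 10 above WT (median 0.03). Among 8 apolipoprotein and uptake genes, 5 were below WT. Apob, the core protein of the particles that the liver secretes, was covered by 5 probes, all lower, at -0.14 to -0.32, with a gene difference of -0.22 ± 0.10 (adjusted p = 0.493). Apoc3, an inhibitor of lipoprotein clearance, was the highest at 0.28 and Lrp1, a clearance receptor, the lowest at -0.30.

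Glucose and mitochondrial genes stayed near the median of all genes. Of 25 genes of gluconeogenesis, glycolysis and insulin response, 14 were above WT (median 0.00), and the lowest was the insulin-signalling kinase gene Akt1 at -0.31 ± 0.12 (adjusted p = 0.387, probes -0.05 and -0.56). Of 31 genes of oxidative phosphorylation and the citrate cycle, 20 were below WT (median -0.04), the lowest being Esrra, a nuclear receptor that drives mitochondrial genes, at -0.30 (adjusted p = 0.434). Mitochondrial ribosome and translation genes were split 15 to 16 (median -0.00). Their 1 gene past the threshold was Mrps2, a protein of the small mitochondrial ribosomal subunit, at -0.64, -0.80, -0.88, -0.66 and -0.81 in WT and -0.11, -0.29, -0.01, -0.33 and -0.01 in TAKI. The groups of Mrps2 did not overlap, with a rise of 0.61 ± 0.09 (adjusted p = 0.00673) that held in all 10 fits without a mouse but not with normexp (0.114) or with the brightest probe, where it was 0.16 (adjusted p = 0.620). Of its 3 probes the dimmest rose by 1.27 and the others were at 0.38 and 0.16.

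Stress and identity genes of hepatocytes lay below WT more often than not, with no gene past the threshold in limma. Of them, 2 stress and 5 identity genes had an unadjusted p below 0.05. Over all genes 1.22% passed and 9.47% had an unadjusted p below 0.05, so lists this small would hold few or none past the threshold. Of 24 genes of the integrated stress and unfolded protein responses, 20 were below WT and the median was -0.13, or -0.12 from the median of all genes. That distance was -0.07 with quantile normalization and -0.04 with normexp. Averaged over the list and set to the WT mean, WT 1 to 5 were at 0.07, 0.00, -0.04, 0.10 and -0.13 and TAKI 1 to 5 at -0.12, -0.06, -0.12, -0.15 and -0.08. WT 5 stood within the TAKI range, so the groups overlapped. The lowest member was Aars, alanyl-tRNA synthetase, at -0.31 ± 0.12 (adjusted p = 0.418, probes -0.28 and -0.34). Of 25 hepatocyte transcription factors and nuclear receptors, 18 were below WT, with a median of -0.13, or -0.12 from the median of all genes (-0.105 with quantile normalization and -0.098 with normexp). Its lowest member was Rxrb, the common partner of nuclear receptors, at 1.14, 0.97, 1.22, 1.13 and 1.33 in WT and 1.13, 1.06, 0.81, 0.46 and 0.63 in TAKI. TAKI 1 and 2, of slide 4, were level with WT, and TAKI 3 to 5, of slide 5, were below all WT mice. The difference of -0.34 ± 0.13 did not pass (adjusted p = 0.408).

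Markers of macrophages, lymphocytes and liver endothelium lay mostly above WT, while those of stellate cells and fibrosis were split evenly. Of 21 macrophage and Kupffer cell markers, 20 were above WT with a median of 0.20, against 47.1% above WT and -0.01 for all genes tested. No macrophage, lymphocyte or endothelial list had a gene past the threshold in limma. At an unadjusted p below 0.05 were 2 of 21 macrophage, 2 of 11 lymphocyte and 5 of 12 endothelial markers. Over all genes 1.22% passed and 9.47% had an unadjusted p below 0.05, so lists of this size would hold few or none past the threshold. Of 11 lymphocyte markers, 11 were above WT with a median of 0.43, and of 12 liver endothelial markers, 12 were above WT with a median of 0.20. The lists share members, Fcgr2b between macrophage and endothelial cells and Coro1a between macrophages and lymphocytes. Median scaling, which moves all genes alike, put the 3 medians at 0.04, 0.28 and 0.04. Measured from the median of all genes, the lists stood at 0.21, 0.44 and 0.21, against 0.22, 0.37 and 0.19 with quantile normalization and 0.20, 0.34 and 0.16 with normexp. Many markers of these lists had no value here, since 21 of 61, 11 of 62 and 12 of 56 on the array had 2 probes above background.

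These medians did not rest on all mice alike. Averaged over the lymphocyte markers and set to the WT mean, WT lay between -0.26 and 0.22, and TAKI 1 to 5 were at 0.78, 0.80, 0.32, 0.02 and 0.19. TAKI 1 and 2, both of slide 4, stood above all WT mice, TAKI 3 slightly so, and TAKI 4 and 5 within the WT range. Jchain, a plasma cell gene, weighed on the average of TAKI 1: over the other 10 markers TAKI 1 to 5 were at 0.49, 0.79, 0.35, 0.12 and 0.14, WT lay between -0.22 and 0.25, and the median difference stayed at 0.43. The macrophage markers were at 0.22, 0.10, 0.32, -0.17 and -0.48 in WT and -0.49, 0.76, 0.22, 0.40 and 0.12 in TAKI, where the lowest and the highest mouse were TAKI 1 and TAKI 2. The endothelial markers were at -0.12 to 0.07 in WT and at 0.00, 0.25, 0.27, 0.45 and 0.17 in TAKI, with all but TAKI 1 above WT. The part of slide or cell number in these averages was not tested.

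**Figure D4:**
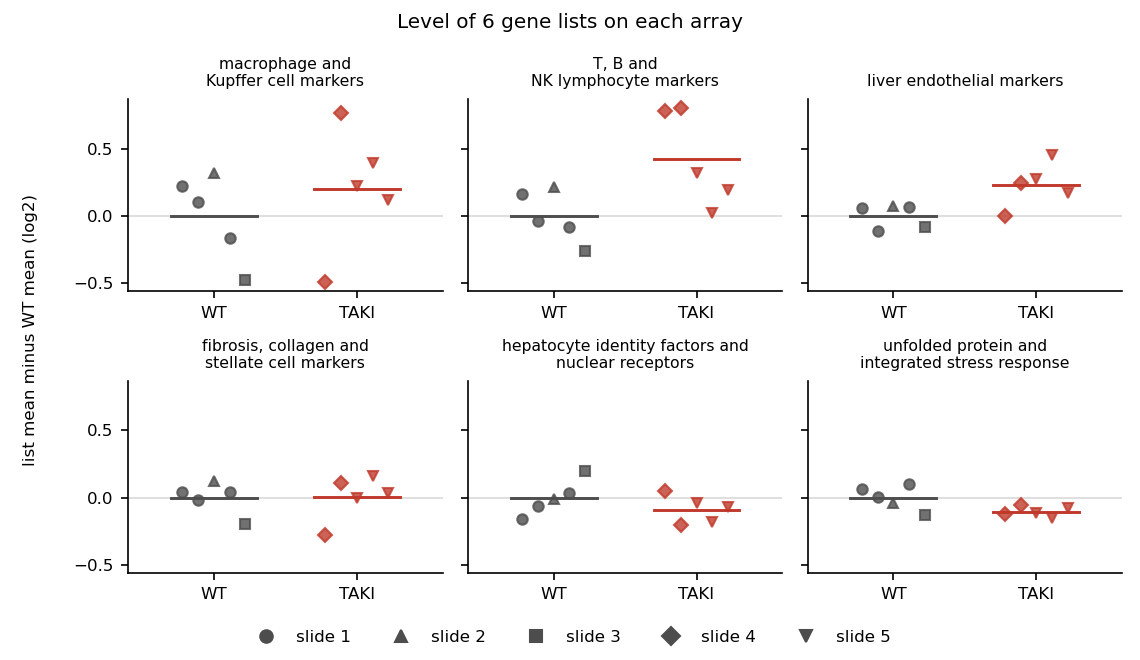
Mean relative log2 level of the measured members of 6 lists in each of the 10 mice, set to the WT mean of the list, with marker shapes for the slides. The lymphocyte markers of TAKI 1 and 2 stand at 0.78 and 0.80, above the other mice, while the macrophage markers of TAKI 1 and 2 are the lowest and the highest of the 10.

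Of single markers, Fcgr2b came closest to the threshold. It encodes an inhibitory receptor for IgG that is abundant on the sinusoidal endothelium of liver and on macrophages and B cells. Its relative level was 1.27, 0.98, 1.18, 1.06 and 1.11 in WT and 1.33, 1.62, 1.63, 2.05 and 1.66 in TAKI. All TAKI mice were above all WT mice, TAKI 1 by little. Its 3 probes, in rows 32, 354 and 426, were higher by 0.52, 0.45 and 0.64, and the difference of 0.54 ± 0.12 had an adjusted p of 0.0537 (limma). Sox17, an endothelial transcription factor, was at 0.53 ± 0.13 without overlap (adjusted p = 0.0810, probes 0.80 and 0.25), and Vwf, the clotting factor of endothelium, at 0.36 ± 0.14 (adjusted p = 0.435). Sox17 and Vwf were chosen after their values were seen.

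Among lymphocyte markers the largest difference came from 1 mouse. Jchain, the joining chain of secreted IgM and IgA made by plasma cells, was at -3.07, -3.50, -3.62, -3.08 and -4.11 in WT and at 0.13, -2.50, -3.53, -4.46 and -2.70 in TAKI. TAKI 1 was several doublings above every other mouse, so the difference of 0.87 ± 0.65 did not pass (adjusted p = 0.712). The T cell genes Cd6, at 0.62 ± 0.19 (adjusted p = 0.248), and Icos, at 0.44 ± 0.13 (adjusted p = 0.216), had both of their probes higher and overlapping groups; both were chosen after their values were seen. Trem2, a receptor of lipid-associated macrophages, was the 1 macrophage marker below WT, at -0.39 ± 0.57 (adjusted p = 0.878). It ranged from -0.06 to 2.31 in WT and from -0.97 in TAKI 1 to 2.25 in TAKI 2, and without TAKI 1 its difference was 0.07.

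Inflammatory genes lay nearer to the median of all genes. Of 23 genes of NF-kappaB, cytokines and chemokines, 12 were above WT (median 0.04), with the T cell chemokine gene Ccl5 the highest at 0.49 ± 0.30 (adjusted p = 0.635). Interferon-stimulated genes were split 11 to 12 (median -0.01), from Parp14 at -0.21 to Sp100 at 0.31, although the interferon gene Ifnab itself passed the threshold. Antigen presentation genes had 8 of 14 above WT (median 0.01), from H2-Q1 at -0.24 to H2-Oa, a class II chaperone, at 0.45 (adjusted p = 0.392). Complement and coagulation genes had 10 of 16 below WT, with complement C3 the lowest at -0.33 ± 0.15 (adjusted p = 0.519), and acute phase genes 6 of 11 below WT (median -0.12). Of 3 neutrophil and mast cell markers all were above WT (median 0.16, about 0 with median scaling or normexp), with the NADPH oxidase subunit gene Cybb highest at 0.47. Measured from the median of all genes, that list stood at 0.17, and at 0.06 with quantile normalization or normexp. Of 30 genes of fibrosis and stellate cells, 15 were above and 15 below WT, from Col27a1 at -0.40 to Ngfr, a marker of stellate cells, at 0.48 ± 0.12 (adjusted p = 0.0821).

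**Figure D5:**
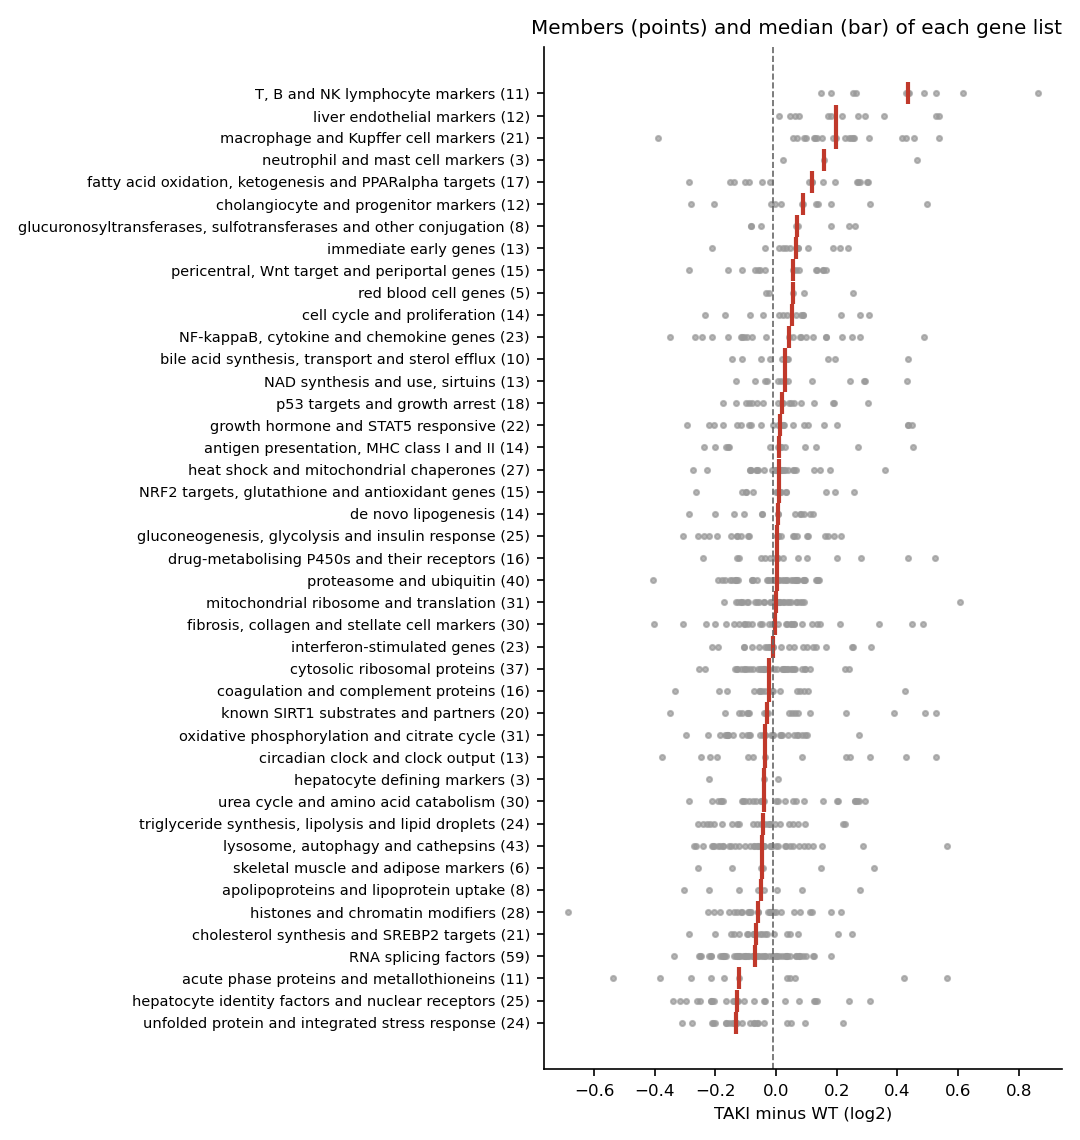
Difference between TAKI and WT (log2) of each measured member of the lists with at least 3 members, 1 point per gene and a bar at the median of the list, with a dashed line at the median of all genes (-0.01). Lymphocyte, macrophage and endothelial markers have the highest medians (0.43, 0.20 and 0.20), and the other lists lie between -0.13 and 0.16.

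Across the 44 lists, 780 distinct genes were measured, and 3 of them passed the threshold (0.385%, against 1.22% of all genes tested): Ccar2, Mrps2 and Atp6v1g2. Atp6v1g2, a neuronal subunit of the proton pump, was the 1 call among 43 genes of lysosome and autophagy, at 0.56 ± 0.11 (adjusted p = 0.0335, probes 1.03 and 0.10), and 30 of the 43 were below WT. The call of Atp6v1g2 was lost in 7 of 10 fits without a mouse and with quantile normalization (adjusted p = 0.0727), the slide block (0.0907), median scaling (0.102) or normexp (0.283). The other 61 genes past the threshold belonged to no list. By unadjusted p, 50 of the 780 were below 0.05 (6.41%, against 9.47%), and 5 did not overlap (0.641%, against 2.74%).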

How the data were processed

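Total liver RNA of 13 mice was labelled with Cy3 and hybridised to Agilent 1-colour arrays; the 5 TAKI and 5 WT arrays are used here. Per the submitters' processing notes, spots were read with Agilent Feature Extraction 9.5. The deposited scanner files hold a linear processed intensity per spot, background-subtracted and detrended (spatially and multiplicatively) within the array, per the file headers. The authors' value table was identical to these intensities (largest difference 0), so it is linear, not centred and not scaled between arrays, and holds no direction. Its column medians were 73.0, 81.1, 54.1, 70.9 and 63.9 for WT 1 to 5 and 77.3, 81.5, 80.2, 104.3 and 100.1 for TAKI 1 to 5.

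Of 45018 spots per array, 43379 are not controls. Spots flagged as outliers were left out and spots of a probe averaged. The deposited intensities were taken to log2, and each array's 75th percentile was subtracted. The 41174 probes were named with RefSeq's table, 22951 by accession, 6659 by symbol and 3109 by synonym, while 8455 kept the file's name; of the 5261 genes tested 5186 have a current symbol. Genes with at least 2 probes well above background on all 10 arrays were tested, with those probes averaged, in limma 3.58.1 in R 4.3.3 (moderated statistics, 8 residual degrees of freedom, Benjamini-Hochberg adjustment over all genes, threshold 0.05). The number of arrays limits the precision. The model was also run on simulated data with independent noise per gene. Those data held no slide, row or probe pattern, so that run does not test the model against such patterns. Sirt1 was also tested with an exact permutation test.

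Named were the 12 highest and 12 lowest genes past the threshold with no overlap of the groups and every probe in the direction of the mean; where fewer qualified, the next by p filled the places. Up to 12 other genes past the threshold, the highest and lowest member of each list, and Sirt1 were also named. A few genes chosen this way are not reported here. Members and lists were chosen with earlier results of these data known. Alternatives were other scalings, background correction, probe filters, probe choices, a trend, array weights, all 13 arrays, slide or replicate number as a block, and each mouse left out. The restriction to upper or lower rows and the count of genes called by every probe were chosen after seeing the data.

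Replicate numbers do not pair the mice: the deviations of same-numbered mice from their group means correlated at -0.09, 0.31, -0.12, 0.20 and 0.08.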

Additional observations from a re-analysis of the deposited data

Results flagged for a closer look

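In 15 of 294 groups of 5 mice looked at (5.10%), for the genes named and the list averages, the highest or lowest mouse stood apart from the other 4 by Dixon's criterion; chance alone gives about 1 in 20. For genes these were Ppp1r12b in TAKI 5 (-3.33, nearest other mouse -3.03), Man2a2 in WT 1 (-0.13, nearest 0.14), Cybb in TAKI 1 (-1.70, nearest -0.80), Hnf4a in WT 5 (0.68, nearest 0.36), Lrp1 in WT 3 (0.82, nearest 1.66) and Sirt7 in WT 5 (4.39, nearest 4.11), as relative log2 levels.

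For list averages set to the WT mean, they were triglyceride and lipid droplet genes in TAKI 1 (-0.23), conjugation enzymes in TAKI 2 (-0.33), NRF2 targets in WT 1 (-0.13), clock genes in TAKI 2 (-0.29), growth hormone responsive genes in WT 5 (0.62), acute phase genes in WT 1 (0.59), red blood cell genes in TAKI 4 (-0.23), histones and chromatin modifiers in WT 1 (-0.05) and proteasome genes in WT 5 (0.15).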

How the results depend on the processing

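The number of genes past the threshold was 64 of 5261. It became 23 with normexp, 34 with the brightest probe of each gene, 404 with array weights and 40 with slide as a random block. Some fits tested another number of genes. Probes above background on at least 5 of 10 arrays gave 130 of 6111, and no filter on dim probes 146 of 8841. All 13 arrays in the fit gave 33 of 5255, and genes of 3 or more probes 1 of 1453. Genes with probes in both the upper and lower rows gave 35 of 3053. Of these, 0.9499% were higher and 0.1965% lower, against 0.988% and 0.228% of all genes. Without the TAKI mice of slide 4 the number was 99, with TAKI 3 to 5 left. It was 1 without those of slide 5, with TAKI 1 and 2 left. Without the WT mice of slide 1 it was 10, with WT 3 and 5 left. These fits have fewer mice in a group, so their numbers do not compare directly with 64. With choices made after seeing the data it was 123 of 4135 with probes of the upper rows (120 higher) and 5 of 4179 with those of the lower rows (0 higher). It was 18 of 5261 when every probe had to agree, and single probes gave 186 of 12385. It was within 1.5 times of 64 with median scaling, quantile normalization, a percentile over detected probes and probes above background on all 13 arrays. The same held with saturated probes left out, a running median over rows removed, RefSeq names and an intensity trend. A like number did not mean the same genes. Median scaling gave 53, of which 33 were among the 64, and quantile normalization 61, of which 47 were. The deposited table holds the same intensities, so its 64 is no separate check. Leaving out a mouse gave 31 to 78. With the replicate number as a block, which does not pair the mice, it was 14, and only number 4 correlated best with its own partner. The cause of these shifts was not tested.

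The Sirt1 difference, not past the threshold in any fit, was -0.038 with median scaling, -0.0090 with its brightest probe or the probe of the upper rows, 0.049 to 0.19 without a mouse and 0.12 with the replicate block.

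Signs turned for these genes. With the brightest probe, Itpripl1 was at -0.086, Nacc2 -0.090, Ccar2 -0.044, Cd300a 0.30, Exoc6b -0.11, Rrp7a -0.095, Kdm2b 0.015 and Per2 -0.15. With the upper rows Cd300a was at 0.30, and with the lower rows Nacc2 at -0.090, Ccar2 -0.044, Ccdc180 -0.12, Exoc6b -0.11 and Rrp7a -0.095. Cpt1a was at -0.040 with median scaling and -0.052 without the TAKI mice of slide 5, Dync2h1 -0.063 with normexp, Jchain -0.086 and Ppargc1a 0.015 without those of slide 4, and Fasn 0.028 and Hnf4a 0.028 without those of slide 5. Leaving out a mouse turned Hnf4a (-0.14 without TAKI 1 to 0.037 without WT 5; also 0.033 without TAKI 2 and 0.023 without TAKI 4), Trem2 (-0.74 without TAKI 2, 0.069 without TAKI 1) and Fasn (-0.41 without WT 5, 0.019 without TAKI 3). Among the 39 named genes past the threshold, 17 kept their call in all 10 fits without a mouse. Signal over background limits dim genes: the 64 had a median level of -2.11.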

Other observations

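The functions of hepatocytes outside fat and glucose metabolism had no gene past the threshold in limma, and 2 urea cycle, 1 zonation, 2 clock and 1 growth hormone responsive gene had an unadjusted p below 0.05; over all genes these shares were 1.22% and 9.47%, at which lists this small hold few or none. Of 16 drug-metabolising P450s and their receptors, 9 were above WT (median 0.00); Cyp2b10, a target of the receptor CAR, was the highest at 0.53 ± 0.37 (SE, adjusted p = 0.682, limma) and spread from -3.31 to -1.22 in WT and from -2.44 to -0.98 in TAKI, and Arnt the lowest at -0.24. Conjugation enzymes had 5 of 8 above WT (median 0.07), and NRF2 targets 9 of 15 (median 0.01), with Srxn1 lowest at -0.26. Of 30 genes of the urea cycle and amino acid catabolism, 17 were below WT (median -0.04), the lowest being glutamine synthetase, Glul, at -0.29 ± 0.12 (adjusted p = 0.481). Glul also was the lowest of 15 zonation genes, 8 of them above WT (median 0.06). Clock genes had 7 of 13 below WT (median -0.04), with Cry2 at -0.38 ± 0.18 (adjusted p = 0.550) opposite to Per2. Growth hormone responsive genes had 12 of 22 above WT (median 0.01), from Trim24 at -0.29 to Igfbp3 at 0.45 ± 0.15 (adjusted p = 0.302).

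Housekeeping groups, and heat shock, p53, cell cycle and immediate early genes, had medians between -0.07 and 0.07, against -0.01 for all genes. Of 59 splicing factors, 40 were below WT (median -0.07), with Rbm25 lowest at -0.34. Of 28 histone and chromatin genes, 21 were below WT (median -0.06). Kdm2b, a histone demethylase, was the lowest at -0.69 ± 0.17 (adjusted p = 0.0810), but its 3 probes were at 0.02, -0.06 and -2.01. Cytosolic ribosomal proteins had 20 of 37 below WT (median -0.02), from Rps20 at -0.25 to Rpl29 at 0.24, and proteasome and ubiquitin genes 20 of 40 (median 0.00), with Psmd4 lowest at -0.41. Heat shock genes had 15 of 27 above WT (median 0.01), from Fkbp4 at -0.27 to Clpx at 0.36. Of 18 p53 targets, 11 were above WT (median 0.02), from Tigar at -0.18 to Rbl2 at 0.30. Cell cycle genes had 10 of 14 above WT (median 0.05). Immediate early genes had 11 of 13 above WT (median 0.07), from Klf6 at -0.21 to Junb at 0.24. With median scaling the median of immediate early genes was -0.09 and that of all genes -0.17.

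Markers of tissues that a dissection could bring along were few among the genes measured. Of 12 cholangiocyte and progenitor markers, 8 were above WT (median 0.09), from Krt8 at -0.28 to H19 at 0.50. With median scaling the median of that list was -0.07 and that of all genes -0.17. Only 2 acinar markers of the pancreas were measured with 2 probes, Prss3 at 0.70 ± 0.25 (adjusted p = 0.343, limma) and Cela1 at -0.11. Their average set to the WT mean ran from -0.65 in TAKI 1 to 1.18 in TAKI 2, and from -0.33 to 0.36 in WT. By any probe, 10 of 27 acinar markers were above background on all 10 arrays, Cela1 and Cel among them. Pnlip was above background on 2 of 10 arrays and Amy2a5 on 1. Muscle and adipose markers had 4 of 6 below WT (median -0.05) and red blood cell genes 3 of 5 above WT (median 0.06). Of the 3 hepatocyte defining markers with 2 probes, 2 were below WT (median -0.04).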
